A study of Homo sapiens with 3 samples.

Results

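The genes described here encode the enzymes that make serine from glucose and those that carry its carbon through the folate cycle of the cytosol and of the mitochondrion. They are 10 of the 18417 genes with a value on the arrays, and all 10 were measured. They were listed by symbol in the array annotation, and the group was selected on log2 differences already known from these arrays, among them that of ALDH1L2. Those differences are therefore given as a description. Cultures of LoVo, an established human colorectal cancer cell line, were compared in 3 conditions, each on a single Affymetrix Human Gene 1.0 ST array. The first array holds parental LoVo, from which the resistant line was made. Both other arrays hold LoVo-R8, which was selected from LoVo in irinotecan raised from 0.1 to 8 μmol/l, and the sources used here do not say whether it is 1 clone. LoVo-R8 was cultured without irinotecan (LoVo 8R-, below drug-free LoVo-R8) or with 8 μM irinotecan (LoVo 8R+, below drug-exposed LoVo-R8). Irinotecan is a camptothecin analogue that traps topoisomerase I on DNA. All cultures shared the same medium, and a text common to their labels mentions drug for 24 h before RNA purification without naming the cultures that received it. The assignment of the LoVo-R8 arrays to these cultures follows the sample labels and is uncertain. The study says that its analysis used the culture without drug, yet the fold changes it tabulates are those of the array labelled as having drug. Either the labels of both arrays are exchanged or the study used the other array, and these cannot be told apart here. If the labels are exchanged, the names drug-free and drug-exposed change places throughout and every difference between the LoVo-R8 cultures turns its sign, while statements on both cultures stand.

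Serine is built from a glycolytic intermediate in 3 steps, catalysed by PHGDH, PSAT1 and PSPH. Serine hydroxymethyltransferase then passes a carbon from serine to tetrahydrofolate and leaves glycine, in the cytosol through SHMT1 and in the mitochondrion through SHMT2. Proliferating tumour cells mostly load folate in the mitochondrion, where MTHFD2 oxidises the carbon and MTHFD1L releases it as formate for the cytosolic enzyme MTHFD1, which prepares it for purine and thymidylate synthesis. ALDH1L1 in the cytosol and ALDH1L2 in the mitochondrion instead oxidise formyl-tetrahydrofolate to carbon dioxide, and so set folate free and yield NADPH.

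The values are log2 levels made by the robust multichip average (RMA), and one level minus another gives the difference, where 1 stands for 2-fold. Without replicates no difference could be tested, and precision is limited by the 3 arrays. For scale, drug-exposed LoVo-R8 and drug-free LoVo-R8 differed by less than 0.53 for 95% of genes. In RNA from a whole culture, fewer cells of a kind and less RNA per cell cannot be told apart. Of 12 colon epithelial markers, 10 or 11 lay at or above the median of each array, and the epithelial adhesion gene EPCAM had levels of 12.33, 11.90 and 12.03. CEACAM5 (-2.37 and -2.11) and LGALS4 (-2.27 and -2.01) were lower in both LoVo-R8 cultures, and CDH17 (1.07 and 1.13) was higher, as was GPA33 in drug-exposed LoVo-R8 (1.39, with 0.60 in drug-free LoVo-R8). What these markers contribute to the results was not tested. PTPRC, which defines leukocytes, was at 4.12 on all arrays, below the first quartile. Of 7 measured leukocyte markers only CD68, a lysosomal protein gene, was 2-fold higher in the LoVo-R8 cultures. Among fibroblast and hepatocyte markers, 0 of 8 and 0 of 8 differed by 2-fold. Of all genes, 1.64% were higher and 2.78% lower in drug-free LoVo-R8, and 2.25% and 2.3% in drug-exposed LoVo-R8. With shares so low, these counts say little about cell types. Levels of different probe sets are not comparable as amounts of RNA. The place of a level among the probe sets of its array is given only as a rough guide to signal. Between genes, only differences between arrays are set side by side.

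Most genes of the pathway were within 2-fold of parental LoVo, and ALDH1L2 lay far outside it. ALDH1L2 was lower in both LoVo-R8 cultures by over 2-fold, ALDH1L1 was higher by over 2-fold in drug-exposed LoVo-R8, and the other 8 genes were within 2-fold in both cultures. In drug-free LoVo-R8, 1 of 10 genes was lower and 0 higher, where 2.78% of all genes were lower and 1.64% higher. In drug-exposed LoVo-R8, 1 of 10 was lower and 1 higher, where 2.3% of all genes were lower and 2.25% higher. The median difference of the 10 genes was -0.15 in drug-free LoVo-R8 and -0.27 in drug-exposed LoVo-R8, against 0.00 over all genes in each. The comparisons share the parental array.

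**Figure D1:**
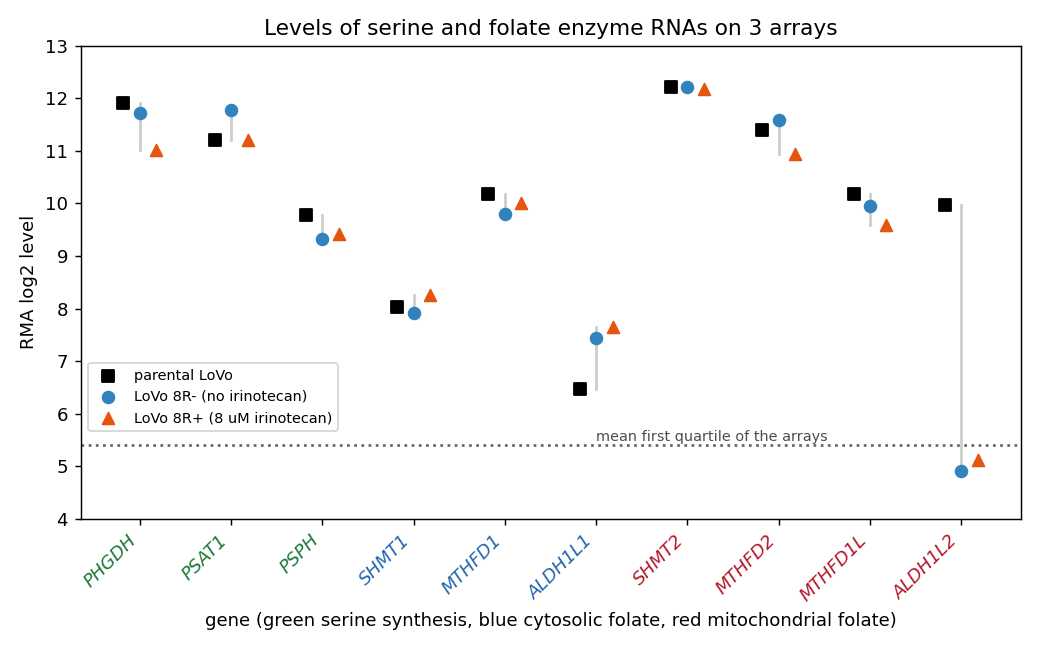
RMA log2 level (vertical axis) of the 10 genes with squares for parental LoVo, circles for drug-free (8R-) and triangles for drug-exposed (8R+) LoVo-R8, 1 array each, with the mean first quartile of the arrays dotted. ALDH1L2 goes from 9.96 in parental LoVo to 4.90 and 5.11 in the LoVo-R8 cultures, while SHMT2 lies between 12.19 and 12.22 on all arrays.

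ALDH1L2, the mitochondrial formyl-tetrahydrofolate dehydrogenase, was at 9.96 in parental LoVo, 4.90 in drug-free LoVo-R8 and 5.11 in drug-exposed LoVo-R8. The parental culture was high, at a level above 88.8% of probe sets, and both LoVo-R8 cultures were near the floor of the array, above 18.2% and 21.1% of probe sets. The RNA was thus 33.4-fold lower in drug-free LoVo-R8 and 28.8-fold lower in drug-exposed LoVo-R8 (log2 differences -5.06 and -4.85). Counted from the lowest difference up, it ranked 2 of 18417 genes in drug-free LoVo-R8 and 4 in drug-exposed LoVo-R8. Both LoVo-R8 levels lay below the first quartile of their arrays (5.42 and 5.39), where background makes up much of an array signal, so the size of the difference is uncertain. Between the arrays labelled with and without drug the difference was 0.21, within that range of low signal.

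ALDH1L1, the cytosolic counterpart, lay on the other side. Its level was 6.47 in parental LoVo, 7.44 in drug-free LoVo-R8 and 7.65 in drug-exposed LoVo-R8. The parental level was the lowest of the 3 and lay under the array median of 6.94, and both LoVo-R8 levels lay above the medians of their arrays. The differences were 0.97 (1.96-fold) and 1.18 (2.27-fold), higher than in 98.3% and 98.4% of all genes. The difference in drug-free LoVo-R8 stayed just under 2-fold with median centring, loess and repeated quantile normalization, at 0.92 to 0.97. A mean over probe sets could not change it, since the gene has a single probe set of its own. RefSeq places the antisense genes ALDH1L1-AS1 and ALDH1L1-AS2 over this gene, and their part in the value was not tested.

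**Figure D2:**
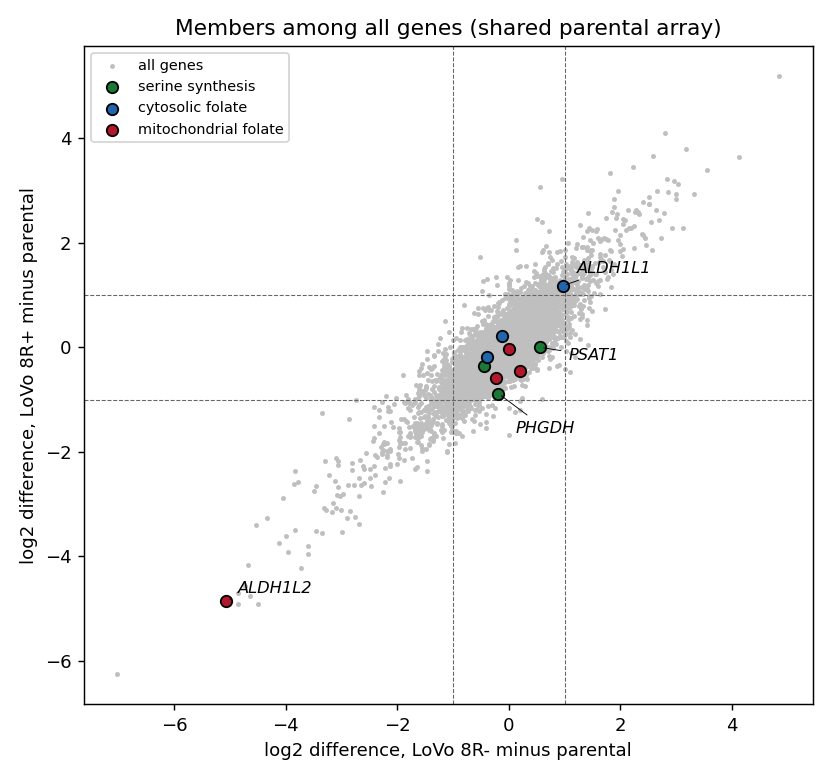
Log2 difference from parental LoVo, with drug-free LoVo-R8 (8R-) on the horizontal and drug-exposed LoVo-R8 (8R+) on the vertical axis, for 18417 genes (grey) and the 10 enzymes (coloured by role), with dashed lines at 2-fold; both axes share the parental array. ALDH1L2 lies at -5.06 and -4.85, ALDH1L1 at 0.97 and 1.18, and the other enzymes lie inside the 2-fold square.

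The genes lying beside ALDH1L2 and ALDH1L1 had other values. Among the 10 measured genes nearest to ALDH1L2 in gene order, 5 on each side, the median difference was 0.01 in drug-free LoVo-R8 and 0.02 in drug-exposed LoVo-R8. The genes on either side of it had small differences, 0.24 and 0.04 for NOPCHAP1 and 0.21 and 0.00 for WASHC4. C12orf75 was the only neighbour past 2-fold, and it was higher (1.42 and 1.54). The 10 neighbours of ALDH1L1 lay between -0.38 and 0.55 in drug-free LoVo-R8 and between -0.51 and 0.26 in drug-exposed LoVo-R8. These neighbours were looked up after the values of both genes had been seen.

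**Figure D3:**
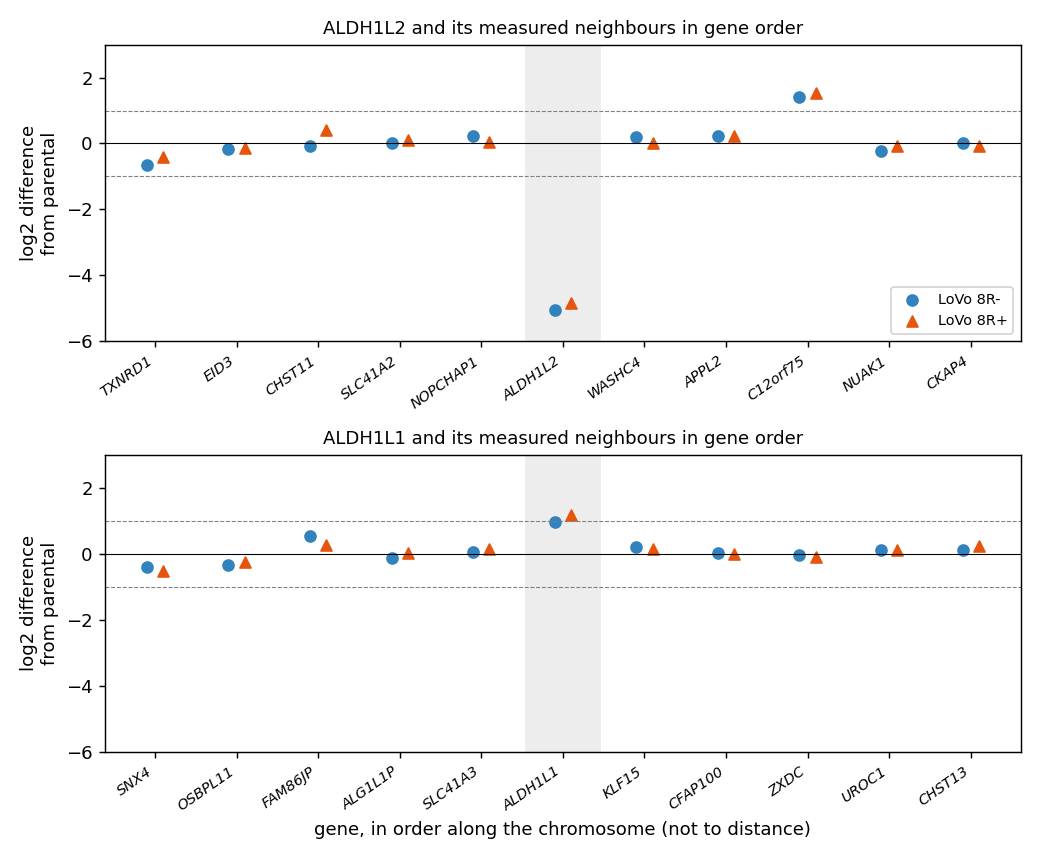
Log2 difference from parental LoVo (vertical axis) of ALDH1L2 (upper panel) and ALDH1L1 (lower panel, both shaded) and of 5 measured genes on each side, in gene order and not to distance, with circles for drug-free (8R-) and triangles for drug-exposed (8R+) LoVo-R8. ALDH1L2 stands alone at -5.06 and -4.85, and C12orf75 is the only neighbour above 2-fold.

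The remaining mitochondrial enzymes were within 2-fold of parental LoVo. SHMT2, which charges mitochondrial folate from serine, had levels of 12.22, 12.22 and 12.19 in parental LoVo, drug-free LoVo-R8 and drug-exposed LoVo-R8, and these were the closest of all 10 genes. Its difference in drug-free LoVo-R8 was -0.00 and turned to 0.03 with repeated quantile normalization. MTHFD2, the mitochondrial dehydrogenase and cyclohydrolase, had 11.40, 11.59 and 10.94, so that drug-free LoVo-R8 was above the parental culture (0.20) and drug-exposed LoVo-R8 below it (-0.46). A further probe set of MTHFD2 gave the same order, at 10.76, 11.06 and 10.26, and RefSeq names 7 pseudogenes of MTHFD2 that may share probe sequence. MTHFD1L, the formate-releasing enzyme, had 10.19, 9.96 and 9.59, with both LoVo-R8 cultures under the parental one (-0.23 and -0.59).

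The cytosolic enzymes SHMT1 and MTHFD1 were also within 2-fold. SHMT1 had levels of 8.03, 7.92 and 8.26 in the same order of cultures, or differences of -0.12 in drug-free LoVo-R8 and 0.22 in drug-exposed LoVo-R8. MTHFD1, which interconverts the folate forms in the cytosol, had 10.18, 9.79 and 10.00, or -0.39 and -0.18. Both genes had their lowest level in drug-free LoVo-R8. RefSeq names 1 pseudogene of each.

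Set side by side, the differences of the mitochondrial and cytosolic isoforms were over 2-fold apart only in the ALDH1L pair. The difference of ALDH1L2 minus that of ALDH1L1 was -6.03 in drug-free LoVo-R8 and -6.03 in drug-exposed LoVo-R8, and it was 0.00 between the LoVo-R8 cultures. For SHMT2 minus SHMT1 it was 0.12 in drug-free LoVo-R8 and -0.25 in drug-exposed LoVo-R8. The pair of MTHFD2 and MTHFD1 gave 0.59 and -0.28, and that of MTHFD1L and MTHFD1 gave 0.16 and -0.41. For these 3 pairs the mitochondrial isoform was therefore on the higher side in drug-free LoVo-R8 and on the lower side in drug-exposed LoVo-R8. The drug-free values of 0.12 and 0.16 were under 0.184, the robust SD of the difference between the LoVo-R8 arrays over all genes. The side of those 2 is thus uncertain. MTHFD1 serves in 2 of the pairs, so they are not independent.

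**Figure D4:**
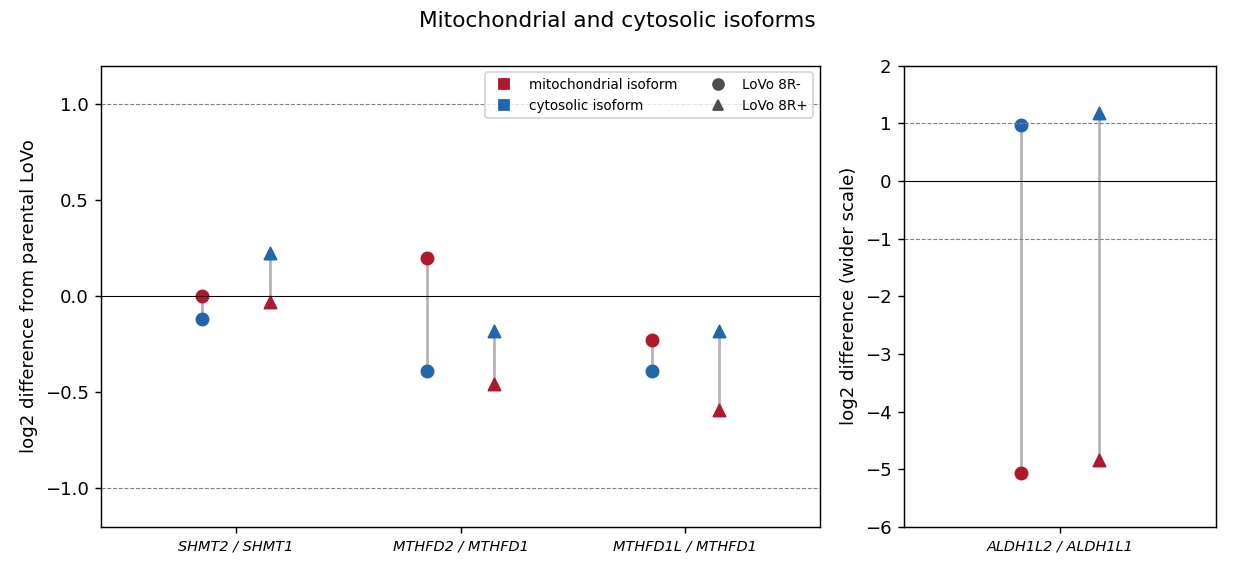
Log2 difference from parental LoVo (vertical axes, wider on the right) of the mitochondrial (red) and cytosolic (blue) isoform of each pair, with circles for drug-free (8R-) and triangles for drug-exposed (8R+) LoVo-R8, joined by a line. The ALDH1L pair is 6.03 apart in both cultures, and the other pairs are at most 0.59 apart.

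Of the serine synthesis genes, none reached 2-fold in either LoVo-R8 culture. PHGDH, which catalyses the first and committed step, was at 11.91 in parental LoVo, 11.73 in drug-free LoVo-R8 and 11.03 in drug-exposed LoVo-R8. The culture with drug was the low one, at -0.89 from parental, a level 45.9% below it. PSAT1, the aminotransferase of the following step, had 11.21, 11.77 and 11.21. Drug-free LoVo-R8 was the high one (0.56), and the values of parental LoVo and drug-exposed LoVo-R8 were the same. Of all probe sets, 26.1% had the same value on at least 2 arrays. RefSeq names 4 pseudogenes of PSAT1.

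PSPH, the phosphatase of the last step, had levels of 9.77, 9.33 and 9.42, or -0.44 and -0.35. A further probe set named PSPH did not give the same size, at 9.56, 8.40 and 9.07, which is -1.15 in drug-free LoVo-R8 and past 2-fold there. Both put the LoVo-R8 cultures under the parental one. RefSeq names the pseudogene PSPHP1, a close copy, and the sources used here do not say which of them each probe set measures, so the value of PSPH is uncertain.

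The culture labelled with drug was then compared with the same line labelled without it, a direction that turns if the labels are exchanged. No member reached 2-fold, with 0 of 10 lower and 0 higher, where 0.114% of all genes were lower and 0.527% higher. PHGDH (-0.70), MTHFD2 (-0.66), PSAT1 (-0.56) and MTHFD1L (-0.36) had lower levels with drug, and only 0.548%, 0.733%, 1.18% and 4.71% of all genes had a lower difference. All 3 cytosolic folate genes had higher levels with drug, by 0.21 for MTHFD1 and ALDH1L1 and by 0.34 for SHMT1. These were less extreme, since 16.4%, 16.3% and 8.67% of all genes had a higher difference than MTHFD1, ALDH1L1 and SHMT1. ALDH1L2 had 0.21, PSPH 0.09 (0.66 in its further probe set) and SHMT2 -0.03, so 5 of the 10 had lower and 5 higher levels with drug. That is near the split over all 18417 genes, of which 8916 had lower, 7265 higher and 2236 equal levels.

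Enzymes of this pathway, PHGDH, PSAT1 and MTHFD2 among them, are known targets of ATF4, the transcription factor of the amino acid stress response. The members were not sorted by ATF4 control. Of all 10, 5 had lower and 5 higher levels with drug, near the split over all 18417 genes (8916 lower and 7265 higher). The 19 measured genes listed around ATF4 include none of the 10 enzymes. Of these 19, 7 were at least 2-fold lower in drug-exposed than in drug-free LoVo-R8 and 0 higher. Over all genes, 0.114% were lower and 0.527% higher. The median of the 19 was -0.69 against 0.00 over all genes. The glutathione-degrading enzyme gene CHAC1 was lower by the most (-1.69), followed by the pseudokinase gene TRIB3 (-1.56), and SLC7A11, DDIT3, WARS1, SESN2 and NUPR1 lay between -1.41 and -1.16. The asparagine synthetase gene ASNS had -0.95. ATF4 itself had -0.43, or -0.21 with the mean over its probe sets. These signs too rest on the labels of the LoVo-R8 arrays. Against parental LoVo, 2 of the 19 were higher and 0 lower in drug-free LoVo-R8, where 1.64% and 2.78% of all genes were. In drug-exposed LoVo-R8, 0 were higher and 4 lower, where 2.25% and 2.3% of all genes were. The list was chosen with results of these arrays known and is not independent evidence.

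**Figure D5:**
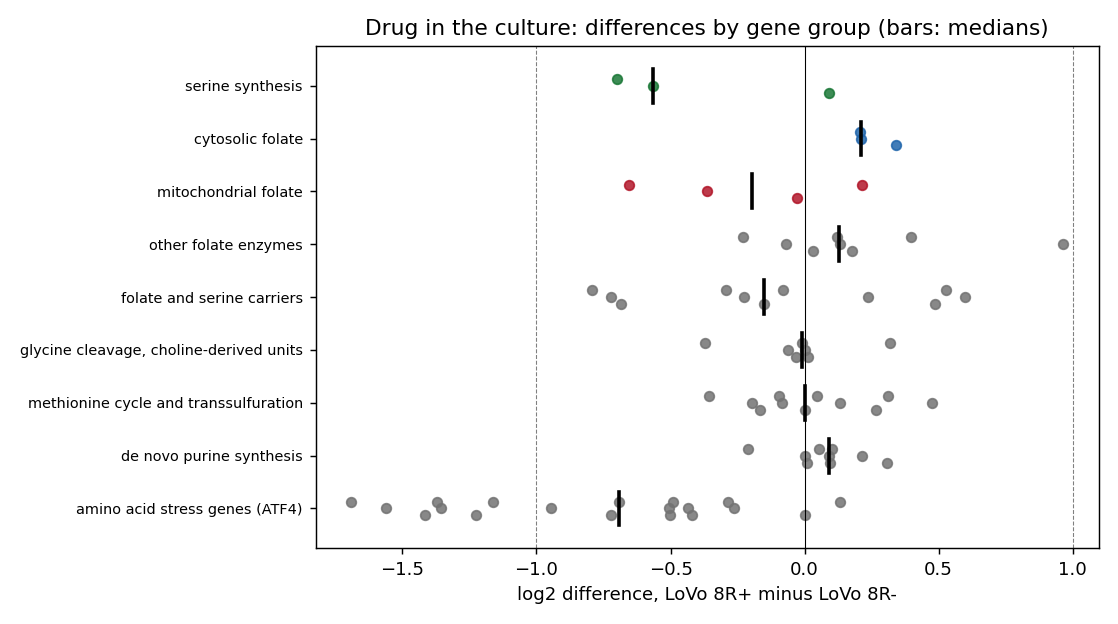
Log2 difference of the array labelled LoVo 8R+ minus that labelled LoVo 8R- (horizontal axis) for each gene of the 3 enzyme groups and of 6 further lists, with each median as a black bar and 2-fold dashed. The serine synthesis genes have a median of -0.56, the cytosolic folate genes of 0.21, and the genes around ATF4 of -0.69.

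The promoters of PHGDH, PSAT1, MTHFD2 and MTHFD1L, whose levels were lower with drug (-0.36 to -0.70), are shown as the 250 bases before the RefSeq start, all on the plus strand of GRCh38.p14: PHGDH (chr1:119711684-119711933), PSAT1 (chr9:78296875-78297124), MTHFD2 (chr2:74198365-74198614) and MTHFD1L (chr6:150866236-150866485, the first listed of 4 starts). Capitals mark exact matches on either strand to TGATGNAA, the core of the element that ATF4 binds with C/EBP factors, to the CCAAT box, and to the E-box CACGTG.
PHGDH: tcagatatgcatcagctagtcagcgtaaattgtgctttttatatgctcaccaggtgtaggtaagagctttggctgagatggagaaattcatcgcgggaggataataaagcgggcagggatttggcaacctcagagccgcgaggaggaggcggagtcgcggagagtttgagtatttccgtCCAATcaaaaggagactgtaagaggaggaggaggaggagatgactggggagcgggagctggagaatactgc
PSAT1: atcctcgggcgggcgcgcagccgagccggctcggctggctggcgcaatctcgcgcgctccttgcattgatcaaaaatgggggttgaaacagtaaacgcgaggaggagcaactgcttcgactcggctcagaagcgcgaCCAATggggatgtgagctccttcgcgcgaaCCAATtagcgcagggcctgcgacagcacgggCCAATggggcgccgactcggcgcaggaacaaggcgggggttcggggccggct
MTHFD2: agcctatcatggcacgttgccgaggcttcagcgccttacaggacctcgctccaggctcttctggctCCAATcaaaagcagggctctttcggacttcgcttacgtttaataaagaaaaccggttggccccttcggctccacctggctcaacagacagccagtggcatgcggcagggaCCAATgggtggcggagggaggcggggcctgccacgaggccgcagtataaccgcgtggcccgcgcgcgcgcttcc
MTHFD1L: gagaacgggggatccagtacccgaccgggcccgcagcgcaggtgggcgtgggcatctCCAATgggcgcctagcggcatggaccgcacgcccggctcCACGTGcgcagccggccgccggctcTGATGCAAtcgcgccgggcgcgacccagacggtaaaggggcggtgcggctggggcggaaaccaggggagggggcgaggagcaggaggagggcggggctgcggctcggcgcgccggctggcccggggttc

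PSAT1 holds 3 CCAAT boxes within 113 bases of its start, MTHFD2 holds 2, and PHGDH and MTHFD1L hold 1 each. Among the stretches searched, TGATGNAA was found only in MTHFD1L. It reads TGATGCAA and begins 129 bases before the start shown, and CACGTG begins 154 bases before that start. ALDH1L2, SHMT2 and PSPH had no promoter entry and were not searched. Of the 7 enzymes with a promoter entry, 6 hold a CCAAT box at any start, 2 hold CACGTG (MTHFD1L and MTHFD1) and 1 holds TGATGNAA. Of their 11 listed starts, 8 hold CCAAT, 3 hold CACGTG and 2 hold TGATGNAA. Of these starts, 3 of MTHFD1L overlap and share sequence. Among 35116 stretches of the same length, 32.0% hold CCAAT, 6.34% hold CACGTG and 3.14% hold TGATGNAA. A match describes the letters and is not evidence of binding, and 0 of these matches overlapped.

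Beyond the members, the carriers of folate and serine differed in both directions. Of 11 carriers, 1 was at least 2-fold higher and 1 lower in drug-free LoVo-R8, and 2 were higher and 2 lower in drug-exposed LoVo-R8. For this and the lists that follow, 1.64% of all genes were higher and 2.78% lower in drug-free LoVo-R8. In drug-exposed LoVo-R8 these shares were 2.25% and 2.3%. The folate receptor gene FOLR1 had levels of 6.81, 8.14 and 8.74 in parental LoVo, drug-free LoVo-R8 and drug-exposed LoVo-R8 (1.33 and 1.93). The glycine transporter gene SLC6A9 had 8.65, 7.31 and 7.01 (-1.35 and -1.64). The serine transporter gene SLC1A4 was lower in drug-exposed LoVo-R8 (-1.41) and had -0.62 in drug-free LoVo-R8. SFXN3, of the family of mitochondrial serine carriers, was higher in drug-exposed LoVo-R8 (1.03) and had 0.55 in drug-free LoVo-R8, and its relative SFXN1, the main such carrier, had -0.70 and -0.17. The mitochondrial folate carrier gene SLC25A32 had 0.25 and 0.02, and the reduced folate carrier gene SLC19A1 0.08 and 0.00; this pair was named for its role after the values were seen. Among the other carriers, SLC38A2, which imports neutral amino acids, had the largest difference that stayed under 2-fold (0.93 and 0.21).

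Of 8 further folate enzymes, 0 reached 2-fold in drug-free LoVo-R8 and 1 was higher in drug-exposed LoVo-R8. That gene was GGH, which trims the glutamate tail of folates (0.09 and 1.05). Thymidylate synthase, TYMS, had -0.38 and -0.25. MTFMT, which formylates the mitochondrial initiator tRNA with formyl-tetrahydrofolate, the substrate it shares with ALDH1L2, had -0.70 and -0.30.

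Other sources and uses of the carbon were mostly within 2-fold. Of 7 genes for glycine cleavage and choline-derived units, DMGDH, the mitochondrial dimethylglycine dehydrogenase, was lower in both cultures (-1.56 and -1.93, from a level of 7.32 to 5.77 and 5.40). Both LoVo-R8 levels were low, not far above the first quartiles of their arrays (5.42 and 5.39), so the size of these differences is uncertain. Of 11 genes of the methionine cycle and transsulfuration, MTAP, which salvages methylthioadenosine, was higher in both (1.06 and 1.53). None of 9 genes of purine synthesis and 0 of 6 other serine-using enzymes reached 2-fold in either culture. The purine median was -0.09 in drug-free LoVo-R8 and -0.07 in drug-exposed LoVo-R8. The medians of these lists of carriers, folate enzymes and other sources and uses lay between -0.21 and 0.16 in the 3 comparisons.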

How the data were processed

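RNA (300 ng per culture) was hybridised by the authors to 3 Affymetrix Human Gene 1.0 ST arrays, 1 per condition. The authors deposited log2 levels, which they made with RMA, which corrects background, equalises quantiles across the arrays and fits each probe set by median polish. Affymetrix Expression Console 1.1 is named in the submitters' notes and R with Bioconductor in the paper. All 33297 probe sets were used without a detection filter.

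Among probe sets naming 1 gene, that of the highest mean level stood for the gene (19460 probe sets, 18417 genes, 19429 probe sets matched to RefSeq by Entrez identifier). Groups follow the labels, which for the LoVo-R8 arrays are uncertain. Differences were subtractions, counted at 2-fold, with no test because each condition has 1 array. The named genes are all members, every list gene past 2-fold, up to 4 others per list with the largest differences, and the 5 genes nearest to a member past 2-fold in both cultures. Genes of the lists without a single-gene probe set are not analysed here. Members and lists were chosen with earlier results of these data known.

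Alternatives were thresholds of 1.5- and 3-fold, median centring, loess (span 0.3, 3 iterations), repeated quantile normalization, means over probe sets, dim filters at the 25th and 50th percentile and the mean of both LoVo-R8 arrays. Median centring, loess, repeated quantile normalization and the subtraction were tested on simulated data, and the other steps were not. Promoters are from RefSeq (GRCh38.p14). Python 3.11.15, numpy 2.4.6, pandas 2.3.3, statsmodels 0.14.6 and matplotlib 3.10.9 were used.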

Additional observations from a re-analysis of the deposited data

How the results depend on the processing

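With 1 array per condition no result has an error, and background limits what low signals show, as for ALDH1L2 in the LoVo-R8 cultures. No paired analysis was possible because each condition has 1 array. At 1.5-fold, 1 member was higher in drug-free LoVo-R8 instead of 0, 3 were lower in drug-exposed LoVo-R8 instead of 1, and 2 were lower with than without drug instead of 0. At 3-fold, 0 members were higher in drug-exposed LoVo-R8 instead of 1. Shares of all genes were taken at 2-fold only, so the counts at 1.5- and 3-fold have no background to be read against. With the mean of both LoVo-R8 arrays, the difference of MTHFD2 minus that of MTHFD1 became 0.15, that of MTHFD1L minus MTHFD1 -0.13 and that of SHMT2 minus SHMT1 -0.07, since the cultures lay on opposite sides; the first turned sign against drug-exposed LoVo-R8 and the other 2 against drug-free LoVo-R8. With a dim filter at the 25th percentile the median of the leukocyte markers in drug-exposed LoVo-R8 became 0.27. With the mean over its probe sets, PSPH had -0.80 in drug-free LoVo-R8 and 0.38 between the LoVo-R8 cultures. The SHMT pair included, 350 values for counts, isoform pairs and lists and 118 for single members moved less: differences by less than 0.184, the robust SD of the difference between the LoVo-R8 arrays over all genes, and counts by at most 1.5 times. Some of these 350 and 118 values could not move. The mean over probe sets leaves a gene with a single probe set unchanged, and median centring cancels within each isoform pair. The dim filters keep a gene by the higher of its levels on the arrays compared. Against parental LoVo they could therefore not drop ALDH1L2, which was high there, and its unchanged count under them is no support. The 3 arrays allow no array to be left out.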

Other observations

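Of 14 measured aldehyde dehydrogenase genes other than ALDH1L1 and ALDH1L2, ALDH1A1, a retinaldehyde dehydrogenase often used as a marker of colon stem-like cells, was the only one past 2-fold. Parental LoVo had 7.79, drug-free LoVo-R8 10.52 (6.64-fold higher) and drug-exposed LoVo-R8 9.89 (4.29-fold higher). ALDH1B1, a mitochondrial member, had -0.96 and -0.58, and ALDH1A3 had 0.66 and 0.54, or 0.33 and 0.13 with the mean over its probe sets. The family's median was 0.02 in both cultures.

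The 5 genes whose pair of differences from parental LoVo lay nearest to that of ALDH1L2, by Euclidean distance over the pair of LoVo-R8 cultures and among genes that reached the array median, were FST (distance 0.21), CD200 (0.26), NFIB (0.44), RAB25 (0.44) and PROM1 (0.57). With 3 arrays this likeness says only that all were similarly lower in both cultures.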
